A study of Mus musculus with 3 samples.

Results

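The heat shock and J-protein chaperone genes of mouse embryonic stem (ES) cells are described here, across deletion of *Nr0b1*, the X-linked gene of the orphan nuclear receptor Dax1. Members were the 108 probes, for 71 genes, whose array gene name starts with Hspa, Hspb, Hspd, Hspe, Hsph, Hsp90, Dnaja, Dnajb or Dnajc followed by a number, out of 55681 probes and 34797 gene names. The rule used names and no measured value. RNA of 3 groups of cells was hybridised to 9 Agilent one-colour arrays, 3 per group. *Nr0b1* KO/Y ES cells (Dax1 KO) carried the deleted allele, and such lines came from colonies isolated after the deletion. *Nr0b1* fl-/Y +Tx ES cells (Dax1 induced KO, 4 days) had been given 4-hydroxy tamoxifen (Tx), which activates the MerCreMer recombinase, for 4 days. *Nr0b1* fl-/Y −Tx ES cells (Dax1-floxed) carried the same floxed allele without Tx. All 3 groups came from EB5, a male ES cell line, carried constitutively expressed *MerCreMer* and *Egfp* transgenes, and were grown with LIF, with or without fibroblast feeder cells. The methods call the arrays of a group biological triplicates, and whether KO/Y was 1 clone is not given in the sources used here. No group had Tx without the deletion, so Tx and the deletion cannot be told apart in +Tx over −Tx. That comparison asks what had changed 4 days after the deletion, and KO/Y over −Tx what was different in established cells without the gene. The groups are called KO/Y, +Tx and −Tx.

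Chaperones bind unfolded proteins and help them to fold, to cross membranes or to be degraded. Hsp70 proteins (Hspa genes) do so in cycles of ATP hydrolysis that J-proteins (Dnaja, Dnajb and Dnajc genes) start and nucleotide exchange factors end, and Hsp90 proteins act later, on clients that are nearly folded. A few cytosolic members are inducible: heat or proteotoxic stress raises their transcription through heat shock factor 1, which binds repeated GAA units. Most of the others are constitutive, and chaperones of the endoplasmic reticulum (ER) answer to the unfolded protein response instead. In the mouse embryo the inducible Hsp70 gene *Hspa1a* is also among the first genes transcribed at the 2-cell stage.

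Inducible and ER members are known for short elements near their start sites, and the windows that hold them are shown because the inducible, J-protein and ER results below can be set against them. The windows run from 250 bases before to 50 bases after a start site (RefSeq, GRCm38.p6), and 57 of the 71 genes have one in the table used. Both strands were searched. A pair of heat shock units was GAANNTTC or TTCNNGAA, and 3 units were such pairs overlapping in 1 unit, so every window with 3 units also holds pairs. The ER stress element was CCAAT and CCACG with 9 bases between them. Pairs stood in 15 of the 57 genes, against 17% of all 27025 genes with a window and 15.1% of all 32851 windows. Runs of 3 units stood in 4 genes (*Dnajb6*, *Hspd1*, *Hspe1* and *Hsph1*), against 0.662% of all genes and 0.603% of all windows. The ER stress element stood in 3 genes (*Hspa5*, *Hsp90b1* and *Dnajc3*), against 0.137% of all genes and 0.119% of all windows. A match is a run of letters and not a measured binding site. *Hsp90aa1*, *Hsp90ab1*, *Hspa8* and *Hspa9* are among the genes without a window, so they were not searched. *Dnajb1* has a window without a match, and the lack of an exact match does not show that a site is absent. In the stretches below the matched letters are in capitals.
*Hspa1a*, chr17:34972193-34972320, minus strand, which also stands base for base before *Hspa1b* at chr17:34959275-34959402: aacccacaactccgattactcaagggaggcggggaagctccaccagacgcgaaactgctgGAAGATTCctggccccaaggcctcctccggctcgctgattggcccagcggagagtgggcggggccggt
*Dnajb6*, chr5:29735812-29735897, plus strand: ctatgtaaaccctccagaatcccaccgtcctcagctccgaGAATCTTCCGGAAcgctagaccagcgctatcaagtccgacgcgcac
*Hspd1*, chr1:55088019-55088116, minus strand, in the stretch shared with the start of *Hspe1* on the other strand: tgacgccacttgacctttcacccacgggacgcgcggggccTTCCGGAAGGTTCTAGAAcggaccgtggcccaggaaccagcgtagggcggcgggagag
*Hspa5*, chr2:34771985-34772083, plus strand: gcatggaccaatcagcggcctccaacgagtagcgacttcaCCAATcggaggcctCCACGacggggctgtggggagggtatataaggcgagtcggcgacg
*Hsp90b1*, chr10:86705493-86705694, minus strand: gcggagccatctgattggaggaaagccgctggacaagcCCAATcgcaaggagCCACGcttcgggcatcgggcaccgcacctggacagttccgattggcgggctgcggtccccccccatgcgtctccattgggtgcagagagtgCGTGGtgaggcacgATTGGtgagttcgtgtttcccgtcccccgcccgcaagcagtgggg

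Values are log2 signals relative to the 75th percentile of the array, so 0 is that percentile and a difference of 1 is a 2-fold change. A gene was tested where the scanner marked a probe of it as well above background throughout at least 1 group, its brightest such probe was used, and a gene is said to have passed where its adjusted p from limma was under 0.05. As the label check, *Nr0b1* measured -6.37, -6.20 and -6.22 in KO/Y, -2.58, -2.66 and -2.42 in +Tx and 4.02, 4.18 and 4.10 in −Tx, with a log2 fold change of -6.65 in +Tx over −Tx, and it was not well above background on any KO/Y array (at least 322-fold lower than in −Tx). The arrays sit on 2 slides: +Tx 2, +Tx 3 and all KO/Y arrays on 1, and +Tx 1 and all −Tx arrays on the other. KO/Y and −Tx never share a slide. Markers of other cells moved with the groups. Of 20 fibroblast markers, the cells used as feeders, 20 passed as higher in KO/Y and 14 in +Tx over −Tx, and their summed level, in multiples of the 75th percentile, was 1001 to 1089 in KO/Y, 902 to 997 in +Tx and 745 to 763 in −Tx. The 10 primitive endoderm markers summed to 39.4 to 59.6 in KO/Y, 12.4 to 14.9 in +Tx and 9.17 to 9.36 in −Tx, the 8 measured markers of 2-cell-like cells to 183 to 209 in KO/Y, 115 to 130 in +Tx and 21.6 to 22.3 in −Tx, and the 10 ES cell markers to 557 to 675 in KO/Y, 665 to 714 in +Tx and 726 to 758 in −Tx. All 20 fibroblast markers were well above background on every array, as were 5 to 10 of the primitive endoderm markers. The part of these cells in the values below was not tested, and in bulk RNA a change in their number cannot be told apart from a change in RNA per cell.

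Of the 71 chaperone genes, 63 were tested, and the changes were small apart from a few genes. In +Tx over −Tx, 9 were higher and 10 lower, that is 14.3% and 15.9% of those tested, against 11.9% and 14.7% of all 22334 genes tested. In KO/Y over −Tx, 18 were higher and 17 lower (28.6% and 27%), against 20.6% and 26.4% of all genes. In KO/Y over +Tx, 5 were higher and 8 lower (7.94% and 12.7%), against 12.1% and 14.2%. The shares called thus lay near those of all genes in each comparison, and the widest gap was that of the rises in KO/Y over −Tx. Over the 2-fold limit of the study, 1 member was higher in +Tx over −Tx (*Hspa1a*), 2 were higher (*Hspa1a* and *Hspa12a*) and 1 lower (*Dnajc22*) in KO/Y over −Tx, and none passed in KO/Y over +Tx, where the log2 fold changes of the members ran from -0.89 to 0.43. *Hspa12a* was not above background in −Tx, where its fold is a bound, under 2-fold, that is given with its values. Of all genes, 1.74% were higher and 0.757% lower over this limit in +Tx over −Tx, 4.72% and 2.83% in KO/Y over −Tx, and 2.37% and 1.03% in KO/Y over +Tx. The median log2 fold change of the 63 members was -0.01, 0.08 and 0.03 in the 3 comparisons in this order, beside -0.06, -0.06 and 0.01 over all genes. The 2 comparisons against −Tx share their −Tx arrays and are given side by side, not as support for each other.

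Slide and single arrays bear on these counts. With slide as a block, +Tx over −Tx compares +Tx 1, the only +Tx array on the slide of −Tx, with the −Tx arrays. KO/Y over −Tx takes its slide difference from the +Tx arrays, and so depends on +Tx 1 as well. Blocked results against −Tx, kept or lost, thus hang on that single array. With slide as a block, 3 were higher and 0 lower in +Tx over −Tx (limma, with 9 lower where p was under 0.05 before adjustment), 5 were higher and 9 lower in KO/Y over −Tx, and 3 were higher and 5 lower in KO/Y over +Tx, and every member that had passed kept its sign (19, 35 and 13 members). Those that passed with the block were *Hspa1a*, *Dnajb6* and *Hspb7* in +Tx over −Tx. In KO/Y over −Tx they were *Hspa1a*, *Dnajb6*, *Dnajb9*, *Dnajb14* and *Hspb7*, all higher, and *Hsp90aa1*, *Hsp90ab1*, *Hsph1*, *Dnaja1*, *Dnaja2*, *Dnajc2*, *Dnajc19*, *Dnajc22* and *Hspd1*, all lower. In KO/Y over +Tx they were *Dnajb9*, *Dnajb11* and *Dnajb14*, higher, and *Hsp90aa1*, *Hsph1*, *Dnaja1*, *Dnajc22* and *Hspd1*, lower. Every other call on the brightest probe of a member was not past the threshold with the block. Calls over all 22334 genes fell too. They went from 2665 higher and 3289 lower to 1065 and 1156 in +Tx over −Tx. They went from 4595 and 5893 to 2145 and 2739 in KO/Y over −Tx, and from 2702 and 3166 to 2044 and 2474 in KO/Y over +Tx. The 10 members lower in +Tx over −Tx became 1 without +Tx 2, 2 without −Tx 3, and 3 without +Tx 1, −Tx 1 or −Tx 2. The 5 members higher in KO/Y over +Tx became 3 without KO/Y 3, +Tx 1 or +Tx 2, and the 8 lower became 2 without KO/Y 3, 3 without KO/Y 2, 4 without KO/Y 1 or any −Tx array and 5 without any +Tx array. Over all genes, leaving out 1 array gave 1855 to 3830 lower in +Tx over −Tx. In KO/Y over +Tx it gave 1902 to 2911 higher and 2481 to 2916 lower.

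**Figure D1:**
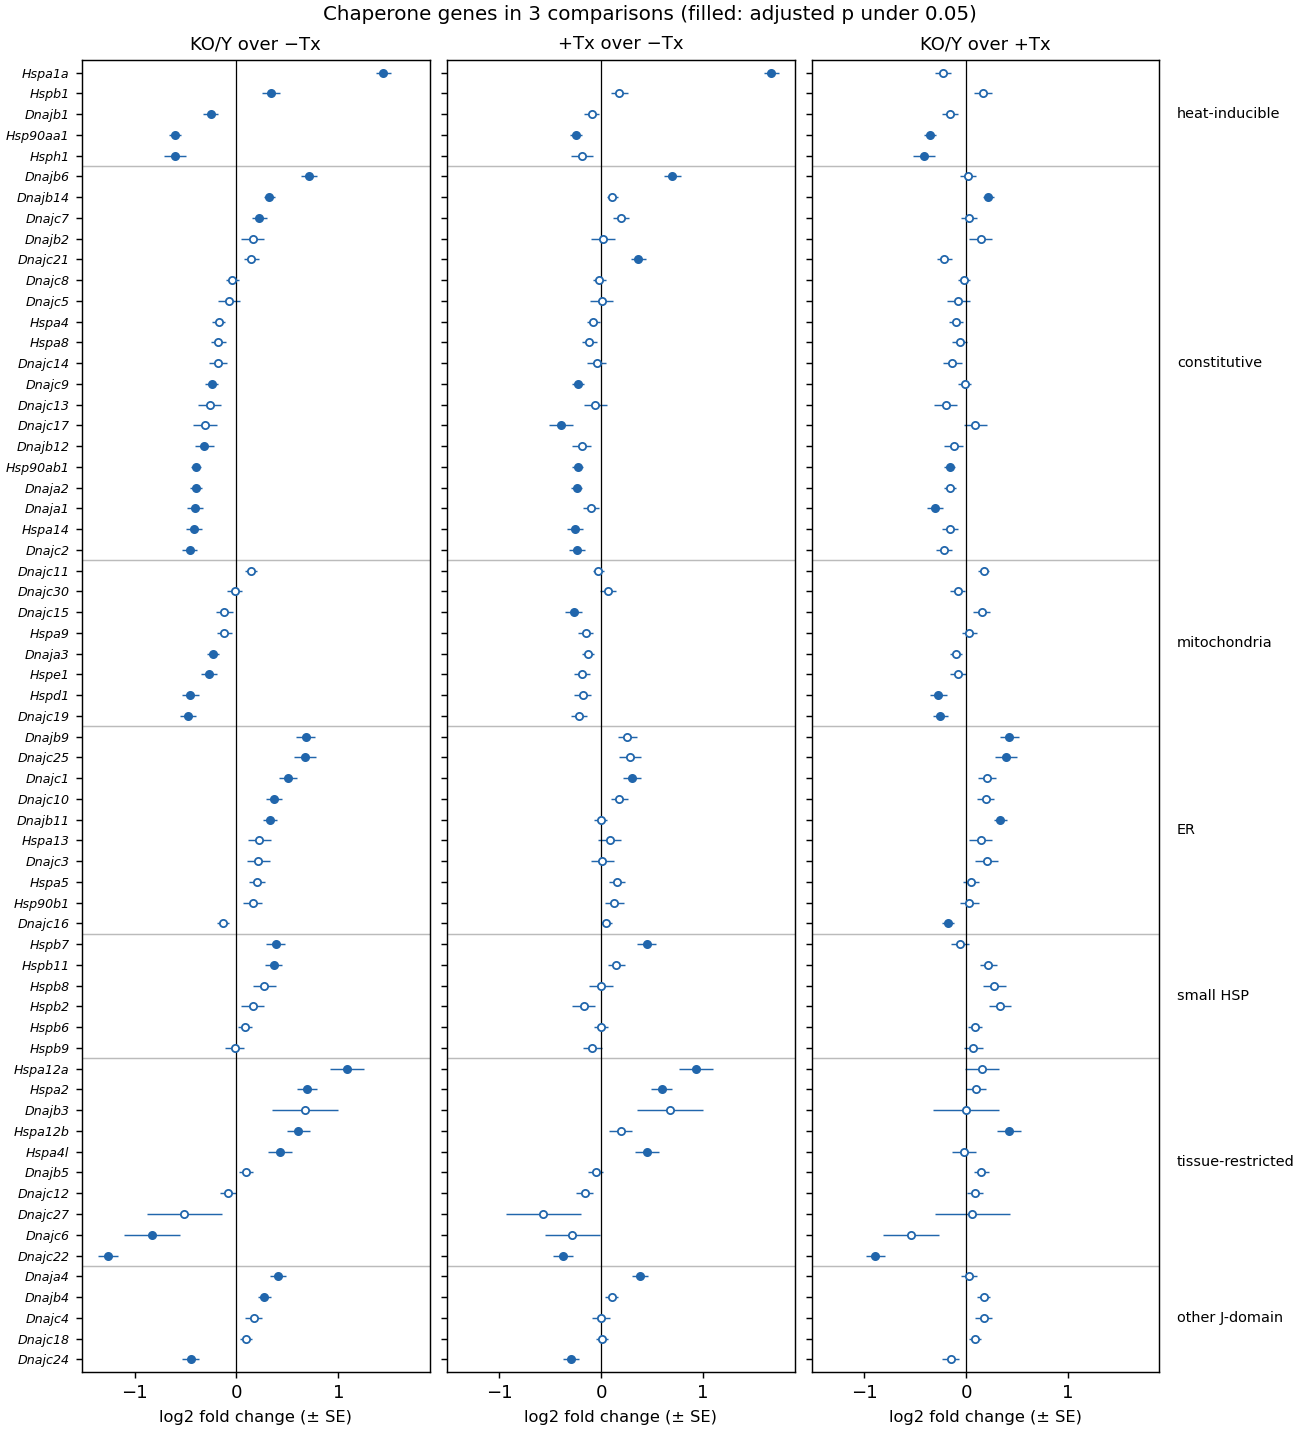
Log2 fold change of each of the 63 tested chaperone genes (points, with the standard error from limma; filled where the adjusted p was under 0.05) in KO/Y over −Tx, +Tx over −Tx and KO/Y over +Tx, by class of chaperone. *Hspa1a* stands apart at 1.44 in KO/Y and 1.67 in +Tx over −Tx, and most other members lie within 0.5 of 0.

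*Hspa1a*, the inducible cytosolic Hsp70, rose in both kinds of *Nr0b1*-deleted cells, and of the other heat-inducible members only *Hspb1* passed as higher in any comparison. Its level was -1.46, -1.32 and -1.33 in KO/Y, -1.09, -1.27 and -1.07 in +Tx and -2.80, -2.85 and -2.78 in −Tx. All 6 arrays of deleted cells lay above all 3 −Tx arrays, by more than 1.3 on this scale. The signal was 3.18-fold higher in +Tx than in −Tx, 1.67 (standard error 0.074, adjusted p = 1.85e-06) on the log2 scale. It was 2.71-fold higher in KO/Y, with 1.44 (standard error 0.074, adjusted p = 1.85e-06). KO/Y over +Tx gave -0.23, adjusted p = 0.0546, and these groups did not overlap. With slide as a block, where both comparisons with −Tx depend on +Tx 1, the rise was 1.72 in +Tx over −Tx and 1.52 in KO/Y over −Tx. With normexp background correction, which shrinks dim signals, it was 1.04 (adjusted p = 1.45e-06) and 0.89 (adjusted p = 1.82e-06) in the 2 comparisons, and both passed. Of the 8 markers of 2-cell-like cells measured, 7 passed as higher in each of the 3 comparisons, and their part in the *Hspa1a* values was not tested.

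The *Hspa1a* signal rests on 1 probe, which cannot tell the neighbouring copies apart. The array annotation places it at chr17:35107117-35107176 (mm9), in the single exon of the gene, from base 1925 of the transcript, and lists it for transcripts of both *Hspa1a* and *Hspa1b*, the almost identical second copy. No probe carries the name *Hspa1b*. The promoter windows of the copies share 296 of 300 bases, the stretch printed above included. The probe is shown because every *Hspa1a* value comes from it.
*Hspa1a* probe: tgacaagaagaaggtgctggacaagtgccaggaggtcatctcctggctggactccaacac

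The other heat-inducible members went other ways. *Hsp90aa1*, the inducible cytosolic Hsp90, measured 6.94, 6.97 and 7.02 in KO/Y, 7.31, 7.29 and 7.39 in +Tx and 7.60, 7.55 and 7.58 in −Tx. It fell in every comparison and the 3 groups did not overlap, with KO/Y lowest. The log2 fold changes were -0.60 (standard error 0.057, adjusted p = 6e-05) in KO/Y over −Tx, -0.25, adjusted p = 0.0149 in +Tx over −Tx and -0.35, adjusted p = 0.00262 in KO/Y over +Tx. *Hsph1*, the Hsp110 nucleotide exchange factor of Hsp70, measured 3.05, 2.78 and 2.94 in KO/Y, 3.24, 3.25 and 3.53 in +Tx and 3.46, 3.48 and 3.65 in −Tx. KO/Y arrays lay below all others, at -0.60 (standard error 0.106, adjusted p = 0.00165) over −Tx and -0.42, adjusted p = 0.0206 over +Tx, while +Tx over −Tx was -0.19, adjusted p = 0.227. The second *Hsph1* probe gave -0.64 (adjusted p = 0.00126) in KO/Y over −Tx. *Dnajb1*, the J-protein induced together with Hsp70 in heat-shocked cells, measured 4.56, 4.52 and 4.46 in KO/Y, 4.69, 4.54 and 4.79 in +Tx and 4.74, 4.75 and 4.80 in −Tx. It passed as lower in KO/Y over −Tx (-0.25, adjusted p = 0.0217) and not in +Tx over −Tx (-0.09, adjusted p = 0.389).

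*Hspb1*, the small heat shock protein that also binds actin filaments, rose in KO/Y. It measured 8.27, 8.55 and 8.54 in KO/Y, 8.33, 8.29 and 8.24 in +Tx and 8.12, 8.16 and 8.06 in −Tx, so that KO/Y 1 lay level with the +Tx arrays and all KO/Y arrays above −Tx. Its log2 fold change was 0.34 (standard error 0.085, adjusted p = 0.0101) in KO/Y over −Tx and 0.18, adjusted p = 0.164 in +Tx over −Tx, and with slide as a block KO/Y over −Tx gave 0.41 (adjusted p = 0.114). Of the 5 heat-inducible genes measured, 1 passed as higher and 1 as lower in +Tx over −Tx, 2 as higher and 3 as lower in KO/Y over −Tx, and 0 as higher and 2 as lower in KO/Y over +Tx (0 higher and 3 lower at an unadjusted p under 0.05). The shares over all genes were 11.9% and 14.7%, 20.6% and 26.4%, and 12.1% and 14.2% in these comparisons, and with 5 genes the counts are too small to set against them.

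**Figure D2:**
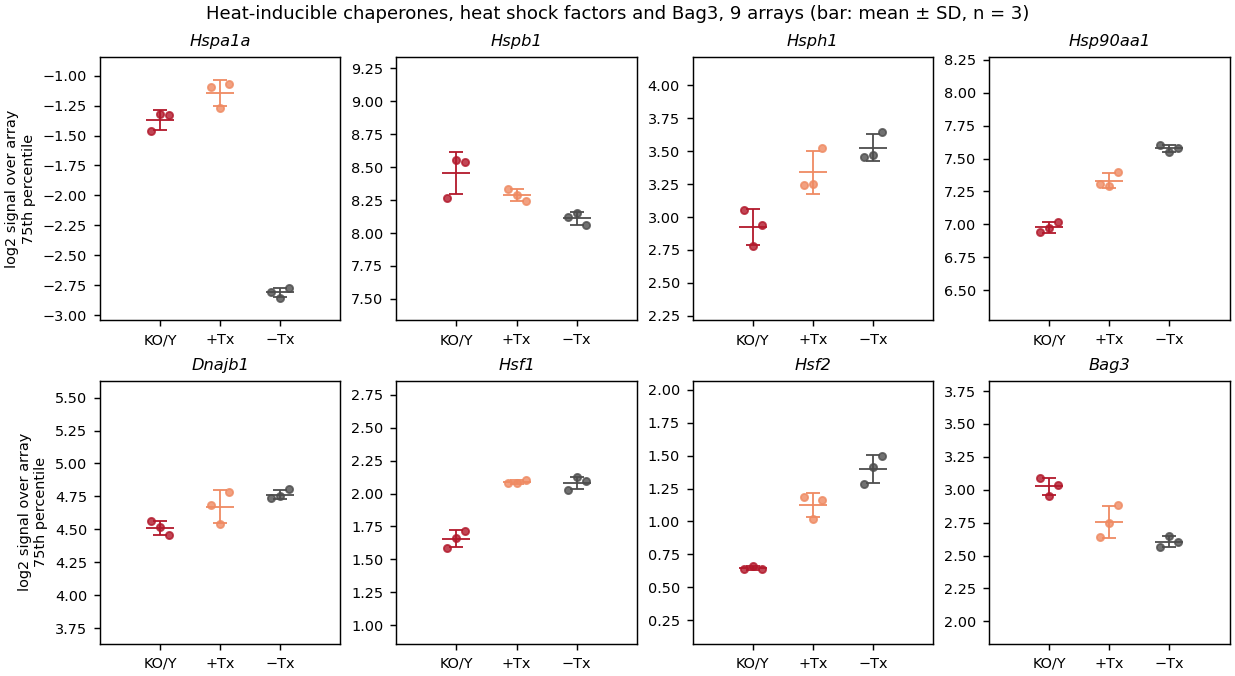
Log2 signal over the 75th percentile of the array for the 5 heat-inducible members, *Hsf1*, *Hsf2* and *Bag3* (points, arrays; bars, mean ± SD, n = 3; every panel spans at least 2 log2 units). *Hspa1a* is higher in KO/Y and +Tx than in −Tx, while *Hsp90aa1*, *Hsph1* and *Hsf2* are lowest in KO/Y.

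The heat shock factors themselves did not rise. *Hsf1*, the stress-activated factor of the inducible genes, measured 1.59, 1.67 and 1.72 in KO/Y, 2.08, 2.08 and 2.10 in +Tx and 2.03, 2.12 and 2.09 in −Tx, and was lower in KO/Y only: -0.42 (standard error 0.059, adjusted p = 0.00048) over −Tx and -0.43, adjusted p = 0.00116 over +Tx, with 0.01, adjusted p = 0.946 in +Tx over −Tx. *Hsf2*, which pairs with *Hsf1* and acts in germ cells and embryos, measured 0.64, 0.66 and 0.64 in KO/Y, 1.19, 1.02 and 1.17 in +Tx and 1.29, 1.42 and 1.50 in −Tx. It fell in every comparison, by 0.75 on the log2 scale in KO/Y over −Tx (adjusted p = 7.22e-05), and the 3 groups did not overlap. *Bag3*, a partner of Hsp70 that heat shock factor 1 also induces, was higher in KO/Y over −Tx (0.42, adjusted p = 0.00186) and over +Tx (0.27, adjusted p = 0.0304), and +Tx over −Tx gave 0.15, adjusted p = 0.176. mRNA levels say nothing of the activity of these factors, which was not measured.

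Among the 19 constitutive chaperones of the cytosol and nucleus, more passed as lower than as higher, as over all genes. The lower counts of each comparison include *Dnaja1*, *Dnaja2* or both by their brightest probe, although their other probes went the opposite way. In +Tx over −Tx 2 were higher and 6 lower (10.5% and 31.6%, against 11.9% and 14.7% of all genes), in KO/Y over −Tx 3 and 7 (15.8% and 36.8%, against 20.6% and 26.4%), and in KO/Y over +Tx 1 and 2 (5.26% and 10.5%, against 12.1% and 14.2%), with median log2 fold changes of -0.08, -0.18 and -0.10. *Hspa8* encodes the constitutive Hsp70, Hsc70. It measured 8.78, 8.95 and 8.94 in KO/Y, 8.99, 9.02 and 8.85 in +Tx and 9.09, 9.03 and 9.09 in −Tx and passed in no comparison, with -0.18, adjusted p = 0.0772 in KO/Y over −Tx. Its 2 other probes, tested on their own, gave -0.30 (adjusted p = 0.0474) and -0.22 (adjusted p = 0.0108) there. *Hsp90ab1*, the constitutive Hsp90, measured 8.13, 8.17 and 8.16 in KO/Y, 8.29, 8.35 and 8.32 in +Tx and 8.56, 8.55 and 8.54 in −Tx. The arrays of a group lay within 0.1 of each other and the groups did not overlap, so that small differences passed: -0.40 (standard error 0.051, adjusted p = 0.000325) in KO/Y over −Tx, -0.23, adjusted p = 0.0122 in +Tx over −Tx and -0.16, adjusted p = 0.0469 in KO/Y over +Tx. Both cytosolic Hsp90 genes were thus lower in KO/Y than in −Tx and +Tx.

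*Hspa14* and *Dnajc2* encode the Hsp70 and the J-protein of the ribosome-associated complex, which meets nascent chains. *Hspa14* measured 4.42, 4.46 and 4.46 in KO/Y, 4.62, 4.46 and 4.73 in +Tx and 4.78, 4.91 and 4.90 in −Tx, and *Dnajc2* measured 1.43, 1.39 and 1.55 in KO/Y, 1.60, 1.64 and 1.79 in +Tx and 1.92, 1.97 and 1.85 in −Tx. For each gene all 3 −Tx arrays lay above the other 6. The log2 fold changes in KO/Y over −Tx were -0.42 (standard error 0.078, adjusted p = 0.0022) for *Hspa14* and -0.46 (standard error 0.076, adjusted p = 0.00119) for *Dnajc2*, and in +Tx over −Tx they were -0.26, adjusted p = 0.0382 and -0.24, adjusted p = 0.047. With slide as a block *Dnajc2* passed in KO/Y over −Tx (-0.58, adjusted p = 0.0236) and *Hspa14* did not (-0.39, adjusted p = 0.105), and neither passed in +Tx over −Tx, at -0.24 (adjusted p = 0.236) for *Hspa14* and -0.32 (adjusted p = 0.108) for *Dnajc2*. *Dnajc9*, a co-chaperone of histones, was lower in +Tx over −Tx (-0.23, adjusted p = 0.0283) and in KO/Y over −Tx (-0.24, adjusted p = 0.0115). *Dnajc17*, a nuclear J-protein, passed as lower in +Tx over −Tx alone, at -0.40 (standard error 0.115, adjusted p = 0.0348), and measured -1.49, -1.38 and -1.39 in KO/Y, -1.50, -1.45 and -1.58 in +Tx and -0.89, -1.07 and -1.38 in −Tx. Its −Tx arrays differed by almost 0.5 among themselves.

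*Dnajb6* was the constitutive member that rose most. It encodes a J-protein that keeps polyglutamine and other aggregation-prone proteins soluble, and mouse embryos need it for the placenta. It measured 4.59, 4.53 and 4.61 in KO/Y, 4.50, 4.47 and 4.70 in +Tx and 3.77, 3.92 and 3.89 in −Tx. All arrays of deleted cells lay above all −Tx arrays, and KO/Y and +Tx overlapped. The rise was 1.62-fold in +Tx (0.70, standard error 0.079, adjusted p = 0.000532) and 1.64-fold in KO/Y (0.71, standard error 0.079, adjusted p = 0.000136), and KO/Y over +Tx was 0.02, adjusted p = 0.904. All 4 probes of the gene rose. The brightest starts at base 2544 and overlaps the probe at base 2550 of the same transcript, so these 2 are nearly 1 measurement. The probes that start at bases 376, 500 and 2550 of their annotated transcripts gave 0.49 (adjusted p = 0.0113), 0.38 (adjusted p = 0.00881) and 0.63 (adjusted p = 0.00298) in +Tx over −Tx, and 0.38 (adjusted p = 0.0167), 0.45 (adjusted p = 0.00141) and 0.70 (adjusted p = 0.000556) in KO/Y over −Tx. With slide as a block the rise was 0.65 (adjusted p = 0.0156) in +Tx over −Tx. *Dnajc21*, a J-protein of ribosome assembly, was higher in +Tx over −Tx (0.36, adjusted p = 0.00808) but not in KO/Y over −Tx (0.15, adjusted p = 0.134), where 1 of its 2 other probes was lower, at -0.33 (adjusted p = 0.0244). *Dnajb14*, anchored in the ER membrane with its J-domain in the cytosol, was higher in KO/Y over −Tx (0.32, adjusted p = 0.00133) and over +Tx (0.22, adjusted p = 0.0193), whereas its relative *Dnajb12* was lower in KO/Y over −Tx (-0.32, adjusted p = 0.0238). *Dnajc7*, a J-protein that binds Hsp70 and Hsp90, was higher in KO/Y over −Tx at 0.23, adjusted p = 0.0396. *Dnajb2*, *Dnajc8*, *Dnajc13* and *Dnajc14* did not pass in any comparison with their brightest probe, with log2 fold changes between -0.26 and 0.16 in KO/Y over −Tx, and the second *Dnajb2* probe was lower in +Tx over −Tx, at -0.67 (adjusted p = 0.0406).

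*Dnaja1* and *Dnaja2*, the main class A J-proteins of Hsc70, gave opposite results with their different probes. The *Dnaja2* probe at base 1661 of the transcript (chr8:88062657-88062716, mm9) measured 2.77, 2.83 and 2.82 in KO/Y, 2.97, 2.91 and 3.01 in +Tx and 3.21, 3.18 and 3.23 in −Tx. The probe at base 2770 (chr8:88061548-88061607) measured 1.67, 1.60 and 1.81 in KO/Y, 1.18, 1.24 and 1.42 in +Tx and 0.93, 0.89 and 0.83 in −Tx. The first was lowest in KO/Y and the second highest in KO/Y, and in both the 3 groups did not overlap. Their log2 fold changes in KO/Y over −Tx were -0.40 (adjusted p = 0.000685) and 0.81 (adjusted p = 0.000124), and in +Tx over −Tx -0.24 (adjusted p = 0.0193) and 0.39 (adjusted p = 0.0128). For *Dnaja1*, the probe at base 1393 measured 5.69, 5.68 and 5.59 in KO/Y, 5.85, 5.90 and 6.12 in +Tx and 6.05, 6.07 and 6.05 in −Tx, and that at base 3377 measured -2.33, -2.11 and -1.99 in KO/Y, -2.69, -2.59 and -3.14 in +Tx and -2.97, -2.92 and -2.75 in −Tx. In KO/Y over −Tx they gave -0.41 (adjusted p = 0.00336) and 0.74 (adjusted p = 0.00429), and in KO/Y over +Tx -0.31 (adjusted p = 0.0249) and 0.66 (adjusted p = 0.0143). In KO/Y over −Tx the probe nearer the 3′ end of the annotated transcript rose and the other fell in both genes, so the direction of these genes as a whole is uncertain.

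*Hspa4*, the other Hsp110 of the cytosol, also had probes of opposite sign. Its brightest probe, at base 2811 of the transcript, measured 6.25, 6.23 and 6.32 in KO/Y, 6.28, 6.35 and 6.47 in +Tx and 6.42, 6.44 and 6.47 in −Tx, and passed in no comparison (-0.17, adjusted p = 0.0604 in KO/Y over −Tx). The probe at base 4549 measured 3.42, 3.37 and 3.61 in KO/Y, 3.06, 3.07 and 3.20 in +Tx and 2.67, 2.78 and 2.60 in −Tx. Here the 3 groups did not overlap and KO/Y was highest, with 0.79 (adjusted p = 0.000149) in KO/Y over −Tx, 0.43 (adjusted p = 0.0092) in +Tx over −Tx and 0.36 (adjusted p = 0.0172) in KO/Y over +Tx. The probe at base 4302 measured 1.20, 0.91 and 1.95 in KO/Y, 0.85, 0.72 and 0.88 in +Tx and 0.39, 0.13 and -0.19 in −Tx, and was higher in KO/Y over −Tx, at 1.24 (adjusted p = 0.00385). The level of *Hspa4* as a whole is thus uncertain in direction too.

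**Figure D3:**
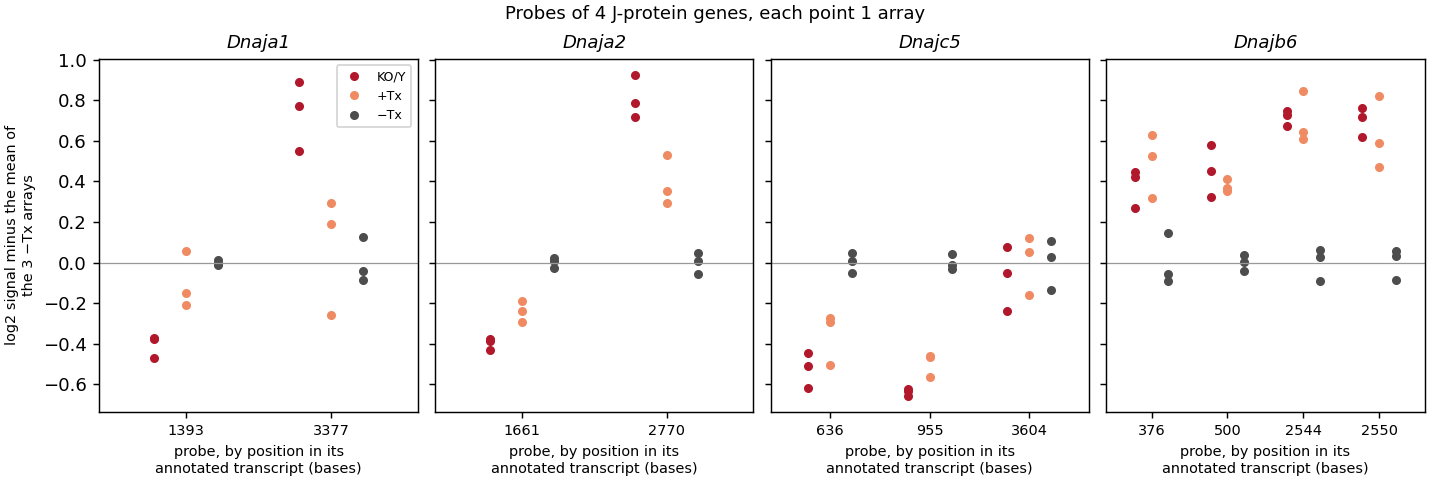
Log2 signal of each tested probe of *Dnaja1*, *Dnaja2*, *Dnajc5* and *Dnajb6*, minus the mean of its 3 −Tx arrays (points, arrays), by the base of the annotated transcript where the probe starts. The probes of *Dnaja1* and *Dnaja2* part in opposite directions in KO/Y, those of *Dnajb6* all lie above −Tx, and 2 of 3 of *Dnajc5* lie below it.

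*Dnajc5*, the cysteine string protein of secretory vesicles, also depended on the probe. The brightest probe passed in no comparison (-0.07, adjusted p = 0.643 in KO/Y over −Tx), while those at bases 636 and 955 were lower in KO/Y over −Tx, at -0.52 (adjusted p = 0.00106) and -0.64 (adjusted p = 6.44e-05). Of the 20 members with over 1 probe tested, all probes of the gene had the same sign in 15 in +Tx over −Tx, in 13 in KO/Y over −Tx and in 11 in KO/Y over +Tx, counting differences of any size.

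Of 8 chaperones of mitochondria measured, 0 were higher and 1 lower in +Tx over −Tx, 0 and 4 in KO/Y over −Tx, and 0 and 2 in KO/Y over +Tx (limma; over all genes 11.9% and 14.7%, 20.6% and 26.4%, and 12.1% and 14.2%; before adjustment, p was under 0.05 for 0, 1 and 1 with a rise and 3, 4 and 2 with a fall). *Hspd1* and *Hspe1* encode Hsp60 and Hsp10, the chamber and lid of the folding cage of the matrix, from 1 shared promoter. *Hspd1* measured 6.09, 6.01 and 6.16 in KO/Y, 6.25, 6.29 and 6.53 in +Tx and 6.54, 6.52 and 6.56 in −Tx, and *Hspe1* measured 6.24, 6.47 and 6.44 in KO/Y, 6.45, 6.43 and 6.51 in +Tx and 6.55, 6.70 and 6.70 in −Tx. All KO/Y arrays lay below the others for *Hspd1*, while +Tx 3 lay within the −Tx arrays. It was lower in KO/Y over −Tx (-0.45, standard error 0.084, adjusted p = 0.0022) and over +Tx (-0.27, adjusted p = 0.0435), and +Tx over −Tx was -0.18, adjusted p = 0.147. *Hspe1* passed in KO/Y over −Tx alone (-0.27, adjusted p = 0.0213). *Hspa9*, the mitochondrial Hsp70, measured 4.52, 4.42 and 4.45 in KO/Y, 4.41, 4.36 and 4.52 in +Tx and 4.49, 4.58 and 4.68 in −Tx, and did not pass in any comparison. *Dnajc19*, a J-protein of the import motor, measured 2.99, 3.20 and 3.20 in KO/Y, 3.31, 3.38 and 3.47 in +Tx and 3.60, 3.63 and 3.59 in −Tx and was lower in KO/Y over −Tx (-0.47, standard error 0.077, adjusted p = 0.0011), although its second probe gave -0.12 (adjusted p = 0.2). *Dnaja3*, the J-protein partner of *Hspa9*, was lower in KO/Y over −Tx (-0.23, adjusted p = 0.0115), and *Dnajc15*, a relative of *Dnajc19*, was lower in +Tx over −Tx (-0.27, adjusted p = 0.0445). *Dnajc11* and *Dnajc30* did not pass, with 0.14 and -0.02 in KO/Y over −Tx, but the other *Dnajc11* probes gave -0.59 (adjusted p = 0.0183) and -0.30 (adjusted p = 0.223) there, against the sign of the brightest.

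In the ER 5 J-proteins rose in KO/Y, while the abundant Hsp70 and Hsp90 of this compartment did not pass. Of 10 measured, 1 was higher and 0 lower in +Tx over −Tx, 5 and 0 in KO/Y over −Tx, and 3 and 1 in KO/Y over +Tx (limma; over all genes 11.9% and 14.7%, 20.6% and 26.4%, and 12.1% and 14.2%; before adjustment, p was under 0.05 for 3, 6 and 5 with a rise and 0, 1 and 1 with a fall). The median log2 fold changes were 0.14, 0.28 and 0.20. *Dnajb14*, anchored in the ER membrane, and its relative *Dnajb12* were counted with the cytosolic and nuclear class and not here. In KO/Y over −Tx the first passed as higher (0.32) and the second as lower (-0.32), so the lack of falls depends on this sorting. *Hspa5*, the ER Hsp70 BiP and a standard readout of the unfolded protein response, measured 5.46, 5.44 and 5.45 in KO/Y, 5.32, 5.34 and 5.56 in +Tx and 5.17, 5.27 and 5.31 in −Tx. +Tx 3 was the highest of the 9 arrays, and KO/Y lay above −Tx, at 0.20, adjusted p = 0.0686. *Hsp90b1*, the ER Hsp90 Grp94, measured 5.46, 5.23 and 5.51 in KO/Y, 5.33, 5.27 and 5.52 in +Tx and 5.22, 5.30 and 5.21 in −Tx, with 0.16, adjusted p = 0.203 in KO/Y over −Tx. Both carry the ER stress element printed above. None of the 5 J-proteins that passed as higher holds it in its window, but neither do most genes, since 0.137% of all genes do. No other element of the unfolded protein response was searched for, and the cause of these rises was not tested.

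*Dnajb9*, the J-protein that hands BiP to the stress sensor Ire1, measured 0.73, 0.59 and 0.85 in KO/Y, 0.33, 0.15 and 0.42 in +Tx and 0.07, 0.10 and -0.04 in −Tx. All KO/Y arrays lay above all others, and the rise was 1.6-fold over −Tx (0.68, standard error 0.094, adjusted p = 0.00045) and 1.34-fold over +Tx (0.43, adjusted p = 0.0112). Its second probe gave 1.11 (adjusted p = 0.00273) over −Tx, and is also listed for *Gm6568*. *Dnajc25* measured -0.07, -0.34 and -0.31 in KO/Y, -0.81, -0.50 and -0.59 in +Tx and -1.01, -0.81 and -0.92 in −Tx, a rise of 0.68 (standard error 0.107, adjusted p = 0.000947) over −Tx, which with slide as a block was 0.41 (adjusted p = 0.13), and its second probe gave 0.26 (adjusted p = 0.0635). *Dnajc1*, a membrane J-protein near ER-bound ribosomes, was the ER member that passed as higher in +Tx over −Tx as well, at 0.30, adjusted p = 0.0374, with 0.50, adjusted p = 0.00167 in KO/Y over −Tx. *Dnajc10*, a reductase of disulfide bonds, gave 0.37, adjusted p = 0.00568 in KO/Y over −Tx, with 0.25 (adjusted p = 0.119) from its second probe, and *Dnajb11*, a BiP cofactor, gave 0.33, adjusted p = 0.00356 over −Tx and 0.33, adjusted p = 0.00681 over +Tx. *Dnajc16* passed as lower in KO/Y over +Tx (-0.18, adjusted p = 0.0455). With slide as a block *Dnajb9* passed over −Tx (0.73, adjusted p = 0.0264) and *Dnajc1*, *Dnajc10*, *Dnajb11* and *Dnajc25* did not. The block gave 0.49 (adjusted p = 0.0815) for *Dnajc1*, 0.37 (adjusted p = 0.137) for *Dnajc10* and 0.27 (adjusted p = 0.178) for *Dnajb11*, so 1 of the 5 rises over −Tx kept its call. All 10 primitive endoderm markers, of a cell type that secretes basement membrane, passed as higher in KO/Y over −Tx and over +Tx. Of the 20 fibroblast markers, 20 and 10 did. The part of either cell type in these values was not tested. *Dnajc3*, an inhibitor of translation kinases, and *Hspa13*, a truncated Hsp70, did not pass, with 0.21 and 0.23 in KO/Y over −Tx.

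**Figure D4:**
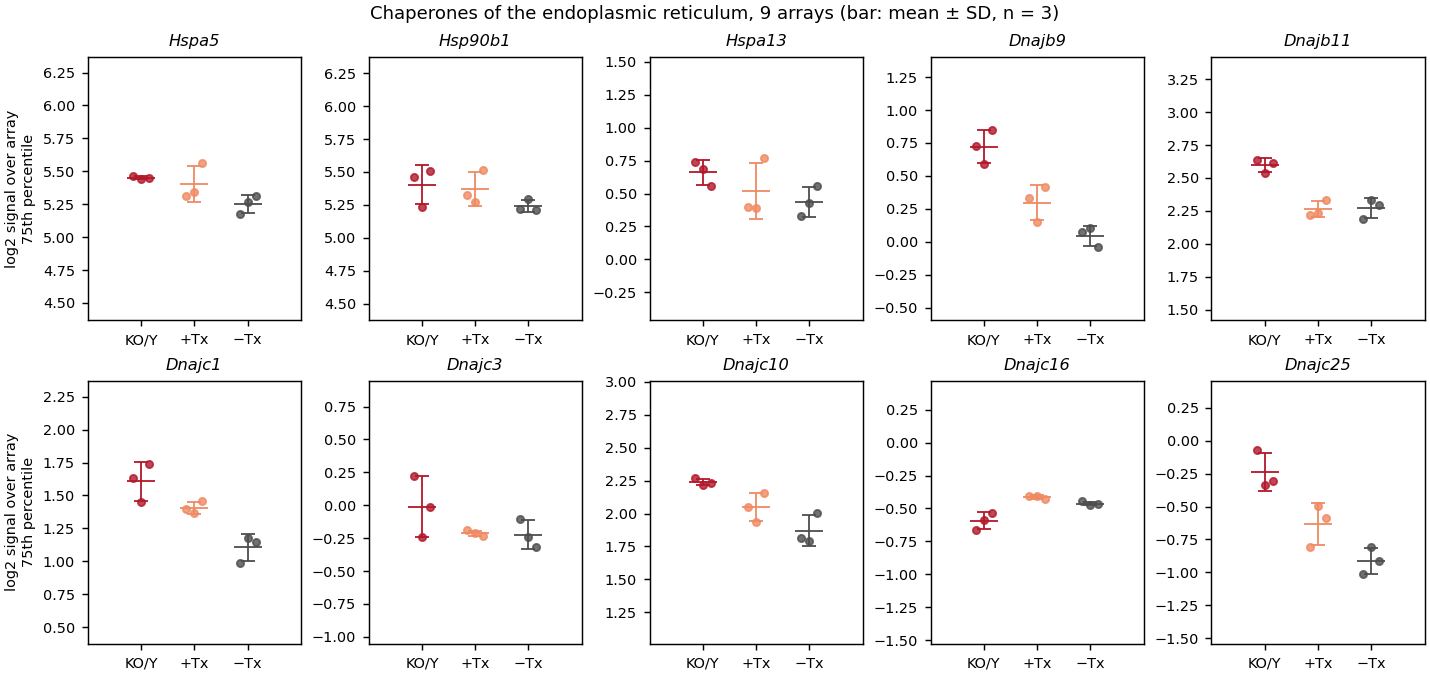
Log2 signal over the 75th percentile of the array for the 10 ER members (points, arrays; bars, mean ± SD, n = 3; every panel spans at least 2 log2 units). *Dnajb9*, *Dnajb11* and *Dnajc25* are higher in KO/Y than in +Tx and −Tx, while *Hspa5* and *Hsp90b1* differ little.

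Of the 7 small heat shock proteins measured, *Hspb1* included, 1 was higher in +Tx over −Tx, 3 in KO/Y over −Tx and 0 in KO/Y over +Tx. In all 3 comparisons 0 were lower (limma). Before adjustment, p was under 0.05 for 1, 4 and 3 with a rise and 0 with a fall. Of all genes, 11.9%, 20.6% and 12.1% were higher, and 14.7%, 26.4% and 14.2% lower. With 7 genes the counts are too small to set against these shares. *Hspb7*, known from heart muscle, was dim: -2.75, -2.83 and -2.90 in KO/Y, -2.60, -2.90 and -2.80 in +Tx and -3.17, -3.16 and -3.31 in −Tx. It rose by 0.45 (standard error 0.091, adjusted p = 0.00856) in +Tx over −Tx and by 0.39, adjusted p = 0.0078 in KO/Y over −Tx. *Hspb11*, which despite its name is a protein of intraflagellar transport in cilia, was higher in KO/Y over −Tx (0.37, adjusted p = 0.00727). It was put in this class by its name and is 1 of the 3 counted as higher there. *Hspb2*, *Hspb6*, *Hspb8* and *Hspb9* did not pass, with log2 fold changes between -0.02 and 0.27 in KO/Y over −Tx.

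A class of members was set apart as expressed mainly in certain tissues, such as testis, neurons or muscle. It held the 3 widest changes in KO/Y over −Tx after *Hspa1a*. These were *Dnajc22*, *Hspa12a*, by its value without the bound, and *Dnajc6*. The fit of single genes to the class was not tested. Of 16 genes, 10 were measured, and 3 were higher and 1 lower in +Tx over −Tx, 4 and 2 in KO/Y over −Tx, and 1 and 1 in KO/Y over +Tx, beside 11.9% and 14.7%, 20.6% and 26.4%, and 12.1% and 14.2% of all genes. *Hspa12a*, a distant Hsp70 relative, was not well above background on any −Tx array and was so on 2 of 3 +Tx and all 3 KO/Y arrays. It was thus tested only because of KO/Y, where it was high, so its calls are not support for a rise there. It is 1 of the 3 counted as higher in +Tx over −Tx and 1 of the 4 in KO/Y over −Tx. *Hspa12a* is a dim member. It measured -3.27, -3.16 and -3.03 in KO/Y, -3.41, -3.50 and -3.01 in +Tx and -4.55, -4.04 and -4.13 in −Tx. The signal was at least 1.67-fold higher in +Tx and at least 1.86-fold higher in KO/Y than in −Tx. Such a bound sets, on each −Tx array, the higher of the probe's own signal and the lowest signal marked as above background. The limma calls were made without the bound, on −Tx signals not above background. They gave log2 fold changes of 0.93 (adjusted p = 0.00465) in +Tx and 1.09 (adjusted p = 0.000754) in KO/Y. With slide as a block these were 0.83 and 0.93, and did not pass. *Hspa12b*, its relative of endothelial cells, measured -0.07, 0.16 and -0.01 in KO/Y, -0.57, -0.48 and -0.13 in +Tx and -0.56, -0.58 and -0.61 in −Tx, and was higher in KO/Y alone: 0.61 (standard error 0.115, adjusted p = 0.00246) over −Tx and 0.42, adjusted p = 0.0283 over +Tx. Neither passed with slide as a block, which gave 0.35 (adjusted p = 0.238) over −Tx and 0.33 (adjusted p = 0.0876) over +Tx.

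*Hspa2*, the Hsp70 of meiotic male germ cells, measured 0.21, -0.10 and -0.04 in KO/Y, -0.10, -0.20 and 0.09 in +Tx and -0.70, -0.62 and -0.67 in −Tx. All arrays of deleted cells lay above −Tx, with 0.59 (standard error 0.102, adjusted p = 0.00398) in +Tx over −Tx and 0.69 (standard error 0.102, adjusted p = 0.000625) in KO/Y over −Tx. *Hspa4l*, an Hsp110 relative abundant in testis, rose by 0.45, adjusted p = 0.0231 in +Tx over −Tx and by 0.42, adjusted p = 0.0156 in KO/Y over −Tx. With slide as a block, *Hspa4l* gave 0.28 and 0.18 in these comparisons and *Hspa2* gave 0.56 and 0.65. Neither gene passed there. *Dnajc22* fell most of all members in KO/Y. It encodes a membrane J-protein whose fly counterpart, wurst, acts in endocytosis, and it measured -1.80, -1.41 and -1.66 in KO/Y, -0.73, -0.69 and -0.77 in +Tx and -0.29, -0.39 and -0.40 in −Tx. The 3 groups did not overlap, and +Tx lay between the others. It was 2.4-fold lower in KO/Y than in −Tx (-1.26, standard error 0.097, adjusted p = 1.95e-05), -0.89, adjusted p = 0.000344 in KO/Y over +Tx and -0.37, adjusted p = 0.0235 in +Tx over −Tx. With slide as a block KO/Y over −Tx gave -1.27 (adjusted p = 0.00403). *Dnajc6*, the neuronal auxilin that uncoats clathrin vesicles, was near background and varied between arrays: -3.58, -3.82 and -3.86 in KO/Y, -3.07, -2.76 and -3.79 in +Tx and -2.50, -3.27 and -3.00 in −Tx, with -0.83, adjusted p = 0.0343 in KO/Y over −Tx. *Dnajb5* and *Dnajc12* did not pass, nor did *Dnajb3* (0.67, adjusted p = 0.16 in +Tx over −Tx) and *Dnajc27* (-0.57, adjusted p = 0.288), whose arrays spread widely: *Dnajb3* measured -1.73, -2.09 and -1.65 in KO/Y, -2.15, -2.36 and -0.96 in +Tx and -2.50, -2.36 and -2.64 in −Tx, and *Dnajc27* measured -3.09, -3.11 and -3.14 in KO/Y, -3.20, -4.07 and -2.24 in +Tx and -2.63, -2.54 and -2.63 in −Tx. The 8 genes that could not be tested, for want of a probe well above background throughout a group, were *Hspa1l*, *Hspb3*, *Dnajb7*, *Dnajb8*, *Dnajb13*, *Dnajc5b*, *Dnajc5g* and *Dnajc28*.

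Of 5 J-domain members outside these classes, *Dnaja4*, a class A relative, was higher in +Tx over −Tx (0.38, adjusted p = 0.008) and in KO/Y over −Tx (0.41, adjusted p = 0.00233), and *Dnajb4*, a relative of *Dnajb1*, in KO/Y over −Tx (0.27, adjusted p = 0.00869). *Dnajc24*, which takes part in the making of diphthamide on elongation factor 2, was lower in both, at -0.30, adjusted p = 0.0265 and -0.45, adjusted p = 0.00175. *Dnajc4* and *Dnajc18* did not pass.

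Of 51 heat shock factors, co-chaperones and other chaperones listed, 47 were tested. In +Tx over −Tx 1 was higher and 13 lower (2.13% and 27.7%, against 11.9% and 14.7% of all genes), in KO/Y over −Tx 5 and 22 (10.6% and 46.8%, against 20.6% and 26.4%), and in KO/Y over +Tx 4 and 6 (8.51% and 12.8%, against 12.1% and 14.2%), with median log2 fold changes of -0.16, -0.17 and -0.03 beside the -0.06, -0.06 and 0.01 of all genes. *Cryab*, the small heat shock protein alpha-B crystallin, was the 1 that rose in +Tx over −Tx (0.52, adjusted p = 0.000764), and it rose in KO/Y over −Tx as well (0.77, adjusted p = 2.62e-05). *St13*, a cofactor that stabilises ADP-bound Hsp70, fell in both (-0.37, adjusted p = 0.0113 and -0.72, adjusted p = 0.000142). *Cct5*, a subunit of the cytosolic chaperonin, gave -0.35, adjusted p = 0.0064 and -0.35, adjusted p = 0.00246, and *Ubqln1*, a shuttle to the proteasome, gave -0.49, adjusted p = 0.0152 and -0.36, adjusted p = 0.0309. *Fkbp5*, an immunophilin of Hsp90, was lower in KO/Y over −Tx (-0.60, adjusted p = 6.41e-05) and over +Tx (-0.42, adjusted p = 0.00116). *Serpinh1*, the collagen chaperone Hsp47, was higher in KO/Y over −Tx (0.56, adjusted p = 9.2e-05) and over +Tx (0.47, adjusted p = 0.000652). It did not pass in +Tx over −Tx, with means of 4.85 and 4.76. Of the 20 fibroblast markers, 20, 10 and 14 passed as higher in KO/Y over −Tx, KO/Y over +Tx and +Tx over −Tx. Of the 10 primitive endoderm markers 10, 10 and 4 did, with 2 lower in the last. The part of either cell type in the *Serpinh1* values was not tested.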

How the data were processed

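RNA of 3 groups of ES cells, 3 arrays each, was labelled with Cy3 and hybridised to Agilent one-colour arrays, scanned with Agilent Feature Extraction 10.7.3.1 (per the submitters' processing notes). The deposited scanner files hold an intensity per spot, already background-subtracted by the authors' software, and a deposited table of the whole series gives a signal per probe and group, the authors' mean of the 3 arrays (log2 correlation of 1 with the scanner means). The authors' array annotation uses mm9.

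The main values were log2 of the processed intensity minus the 75th percentile of each array. Spots marked as outliers and control spots were left out, and replicate spots were averaged. For each gene the brightest probe that was well above background throughout at least 1 group was taken, which left 22334 genes. All 9 arrays were fitted together in limma 3.58.1 (lmFit and eBayes, R 4.3.3, with the data.table package, version 1.17.8), with Benjamini-Hochberg adjustment over all genes. The authors' methods use other software, a false discovery rate of 0.05 and 2-fold. For 8 genes no probe passed the filter on dim values. Between 51.8% and 58.5% of probes were well above background on an array, and 3 arrays a group limit the precision. The script was tested on simulated data, and figures were drawn with Python 3.11.15 and matplotlib 3.10.9.

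Members, classes and marker lists were chosen with earlier results of these data known. Groups come from the sample labels. Named genes were the heat-inducible list, *Hspa8*, *Hsp90ab1*, *Hspa5*, *Hsp90b1*, *Hspa9*, *Hspd1*, *Hspe1*, *Dnaja1* and *Dnaja2*, the 6 members with the largest rise and the 6 with the largest fall among those that passed in each comparison, members whose probes disagree, *Nr0b1*, *Hsf1*, *Hsf2*, *Bag3* and, per comparison, up to 4 co-chaperones that changed most. Other members are named to account for every one. Alternatives were other background corrections, scalings, filters, slide as a block, single slides, other variance estimates, other probes, the 2-fold limit and each array left out.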

Additional observations from a re-analysis of the deposited data

How the results depend on the processing

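The counts of members that passed moved with several settings. Over 2-fold, +Tx over −Tx had 1 higher and 0 lower, KO/Y over −Tx 2 and 1, and KO/Y over +Tx 0 and 0 (limma). Over all 22334 genes slide as a block gave 1065 and 1156, 2145 and 2739, and 2044 and 2474 in these comparisons. The counts of members with the block were 3 and 0, 5 and 9, and 3 and 5. On the slide shared by the groups compared, they were 2 and 1 for +Tx over −Tx, whose single +Tx array was assumed to vary like the −Tx arrays, and 0 and 2 for KO/Y over +Tx (at an unadjusted p under 0.05, 5 and 8). KO/Y and −Tx share no slide. Quantile normalization gave 4 lower in +Tx over −Tx and 8 higher in KO/Y over +Tx, and so 75% of the calls in +Tx over −Tx were higher, against 47.4% in the fit reported, and 50% in KO/Y over +Tx, against 38.5%. The median of probes well above background also gave 50% there, with 6 and 6. No filter gave 3 lower in +Tx over −Tx and 2 higher and 2 lower in KO/Y over +Tx, an intensity trend 8 higher in KO/Y over +Tx, and the 6 arrays compared alone 2 higher and 3 lower there. Leaving out single arrays gave 7 to 10 higher and 1 to 10 lower in +Tx over −Tx, 16 to 22 and 14 to 18 in KO/Y over −Tx, and 3 to 7 and 2 to 5 in KO/Y over +Tx. Over all genes it gave 1934 to 2746 and 1855 to 3830 in +Tx over −Tx. It gave 4009 to 4717 and 4913 to 6158 in KO/Y over −Tx, and 1902 to 2911 and 2481 to 2916 in KO/Y over +Tx.

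The mean of all probes turned *Dnaja2* to 0.076 in +Tx over −Tx and 0.21 in KO/Y over −Tx, and *Dnaja1* to 0.17 in KO/Y over −Tx and 0.18 in KO/Y over +Tx. Their second probes alone gave 0.39 and 0.81 for *Dnaja2*, and 0.74 and 0.66 for *Dnaja1*, and that of *Dnajc19* gave 0.0072 in KO/Y over +Tx. The cause was not tested. The deposited series table kept the direction of all 53 results of named members that had passed. It holds the means of the same arrays, so it is not an independent check. No paired analysis was possible because the sources do not say which array is which replicate, and the arrays were numbered by slide position. Dim members such as *Hspa12a* and *Hspb7* lie close to background, where fold changes are least certain.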
